A study of Mus musculus with 24 samples.

Results

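The hexosamine pathway and O-GlcNAc genes were described here in the liver of 24 male C57Bl6J mice, 1 array per mouse. The set held 10 genes (Gfpt1, Gfpt2, Gnpnat1, Pgm3, Uap1, Ogt, Mgea5, Nagk, Gnpda1 and Gnpda2) of 37074 gene names on the array. Their probes were found by an exact match of the gene name that the scanner files give each probe, with no use of measured values. The genes themselves were chosen with earlier results of these data known, so their shares of calls below are not independent evidence. The 10 names matched 27 probes, and 22 probes of 9 genes were bright enough to be tested.

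All mice were of the F3 generation of lineages that received an oil supplement over the generations, and all were killed while fasting. Reference mice (labelled STD_Cont, n = 9) were of the oleic lineage, which had received high-oleic sunflower oil as the control, and ate a low-fat diet. HFoleic mice (HFD_Cont, n = 8) were of the same lineage and ate an obesogenic diet rich in fat and sucrose. HFepa mice (HFD_O3, n = 7) were of a lineage supplemented with eicosapentaenoic acid (EPA), an omega-3 fatty acid, and ate the obesogenic diet. The EPA lineage had no group on low-fat food among these samples, so for HFepa against reference the effects of diet and lineage cannot be told apart. Whole liver was measured, so that fewer cells of a type and less RNA per cell cannot be told apart either.

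The hexosamine pathway is a side branch of glycolysis. It takes fructose 6-phosphate, glutamine, acetyl-CoA and UTP and builds UDP-GlcNAc, the sugar donor for N-glycans, glycosaminoglycans, membrane anchors and O-GlcNAc. O-GlcNAc is a single sugar that cycles on and off nuclear and cytosolic proteins, and in liver it is known to sit on regulators of glucose and lipid metabolism. Several enzymes of the pathway are also known targets of XBP1, a transcription factor of the unfolded protein response in the endoplasmic reticulum.

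The sequences of the probes that carry the calls below are given first, since each value is the signal of such a probe. Each is the first 30 of 60 bases, 5′ to 3′, as the scanner files list it, with its position on mouse build mm9. No annotation of that build was used, so exons and untranslated regions are not named.
Gfpt1, probe A_55_P2154242, chr6:87042142-87042201, plus strand: gttcaatccagtgactacaccggaactgtg
Gfpt1, probe A_51_P270635, chr6:87041925-87041984, plus strand: tctgcactagtttccagagagtgtagaaat
Uap1, probe A_55_P2005778, chr1:172072212-172072271, minus strand: gtttttgaagttgtacatattgataagtca
Pgm3, probe A_52_P341449, chr9:86448814-86448873, minus strand: aacactttataatattggcagtactagggc
Pgm3, probe A_66_P114412, chr9:86456151-86456210, minus strand: ttcatctcatagatggagacaagatagcga

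Values are log2 median signals after quantile normalization, and each change is a difference of group means on that scale with its standard error (SE). Between 28804 and 34432 of 56605 probes per array were well above background, and 30003 probes entered the tests. Pairs of arrays of a group correlated at 0.974 to 0.996 across probes. Reference replicate 5 stood apart on the first principal component, at 78.2 against -12.9 to 28.2 for the other arrays. Its mean level of 5 bile duct markers was 7.57 against 6.02 to 6.69 elsewhere, and that of 7 stellate cell markers was 10.2 against 9.29 to 9.76, so that results are also given without it. All 7 hepatocyte markers were well above background on all 24 arrays, with mean levels per gene of 13.47 to 18.26. In HFoleic against reference 1 of 7 hepatocyte markers (Cps1, -0.89) and 1 of 7 stellate cell markers (Lrat, 0.56) were called. Of 5 bile duct markers Sox9 (-0.65) was called. Of all tested probes, 7.23% were called there. The other hepatocyte markers changed by -0.38 to 0.20 and the other stellate cell markers by -0.29 to 0.10. The other tested bile duct markers changed by -0.33 and -0.14. Among the markers of 10 cell types, 0 were called in the comparisons of HFepa, against 0.393% and 0% of all probes. The part of the markers in the results below was not tested.

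HFoleic against reference asked what the obesogenic diet changed in the oleic lineage. Gfpt1, the glutamine:fructose-6-phosphate amidotransferase that sets the pace of the pathway, and Uap1, the pyrophosphorylase that completes UDP-GlcNAc, rose in HFoleic. Pgm3, the mutase between these steps, fell, and Gnpnat1, the acetyltransferase before it, did not pass the test. Limma called 3 of the 9 tested members, each read from its brightest probe, at an adjusted p under 0.05 (33.3%). Of all tested probes, dimmer probes of the same genes included, 7.23% were called. The median size of change was 0.0960 for the 9 genes and 0.0955 for all tested probes, without regard to sign.

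**Figure D1:**
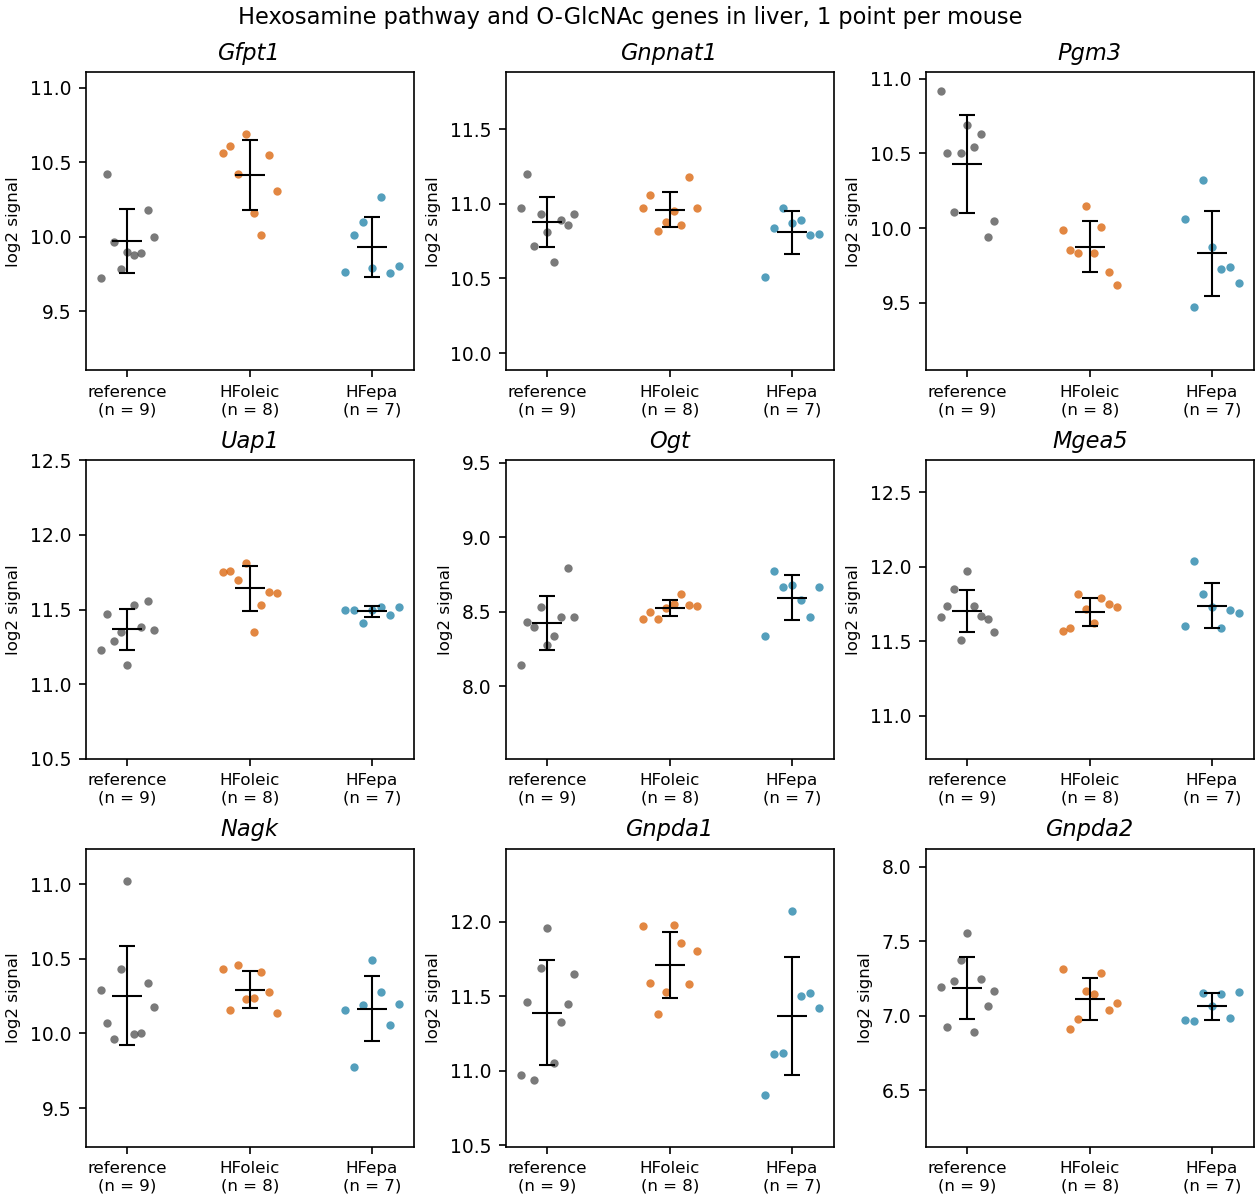
Log2 signal of the brightest tested probe of each member, 1 point per mouse, in 9 reference, 8 HFoleic and 7 HFepa mice, with the mean (bar) and SD (whiskers). Each axis spans 2 log2 units around the gene's own mean, so levels of different genes should not be set against each other. Gfpt1 and Uap1 were highest in HFoleic, and Pgm3 was highest in reference mice.

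Gfpt1 ranged from 9.73 to 10.42 with a median of 9.90 in reference mice. In HFoleic mice it ranged from 10.01 to 10.69 with a median of 10.49, and in HFepa mice from 9.76 to 10.27 with a median of 9.81. All 8 HFoleic mice lay above the reference mean and 5 of 8 above every reference mouse, so that the groups overlapped in part. The mean was 9.97 ± 0.21 (SD, n = 9) in reference and 10.41 ± 0.24 (SD, n = 8) in HFoleic, a rise of 0.44 ± 0.10 (SE) or 1.36-fold (limma, adjusted p = 0.00927). The second bright probe gave a rise of 0.41 ± 0.10 (adjusted p = 0.00858). A further probe near the background, at 5.86 on average, gave 0.18 ± 0.09 (adjusted p = 0.280). Both other Gfpt1 probes were too dim to be tested.

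The rise of Gfpt1 was found on each of the 3 slides, at 0.46, 0.36 and 0.44, and in both rows of the slides, at 0.63 and 0.23. Without reference replicate 5 it was 0.43 ± 0.11 (adjusted p = 0.0147).

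Uap1 ranged from 11.13 to 11.56 with a median of 11.36 in reference mice and from 11.35 to 11.81 with a median of 11.66 in HFoleic mice. In HFepa mice it ranged from 11.41 to 11.52 with a median of 11.50. In 6 of 8 HFoleic mice it lay above every reference mouse, and 1 HFoleic mouse lay below the reference mean. The rise was 0.28 ± 0.06, or 1.21-fold (adjusted p = 0.00881), read from the 1 probe of this gene. It was 0.41, 0.11 and 0.25 within the slides, and 0.25 ± 0.06 without reference replicate 5 (adjusted p = 0.0148). Within the 8 HFoleic mice, Gfpt1 and Uap1 ranked alike, with a Spearman correlation of 0.952 (exact permutation p = 0.00114, adjusted p = 0.0103). The Pearson correlation was 0.822 (exact permutation p = 0.0110, adjusted p = 0.0993), and 0.755 without the 2 mice farthest from the Gfpt1 median. These adjustments are over the 9 relations computed, among Gfpt1, Uap1 and Pgm3 in each group. The other 8 had adjusted p of 0.375 or more by Pearson and 0.386 or more by Spearman. For Gfpt1 and Uap1 the Pearson correlation was 0.522 in reference and -0.093 in HFepa mice. Slide and row were not taken into account in the permutations.

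Pgm3, the phosphoacetylglucosamine mutase, went the other way. It ranged from 9.94 to 10.92 with a median of 10.50 in reference mice and from 9.62 to 10.15 with a median of 9.85 in HFoleic mice. Reference replicates 3, 8 and 9, at 10.11, 9.94 and 10.05, lay within the range of the HFoleic mice, and the other 6 reference mice were at 10.50 or above. All 8 HFoleic mice lay below the reference mean and 5 of 8 below every reference mouse. The fall was -0.56 ± 0.13, or 0.679 times the reference level (adjusted p = 0.00783), and -0.58 ± 0.15 by the second probe (adjusted p = 0.0205). It was -0.72, -0.78 and -0.23 within the slides, and -0.53 ± 0.13 without reference replicate 5 (adjusted p = 0.0142). Slides 1, 2 and 3 held 3, 2 and 3 HFoleic mice and 3 reference mice each, so the smaller fall on slide 3 did not come from fewer mice.

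**Figure D2:**
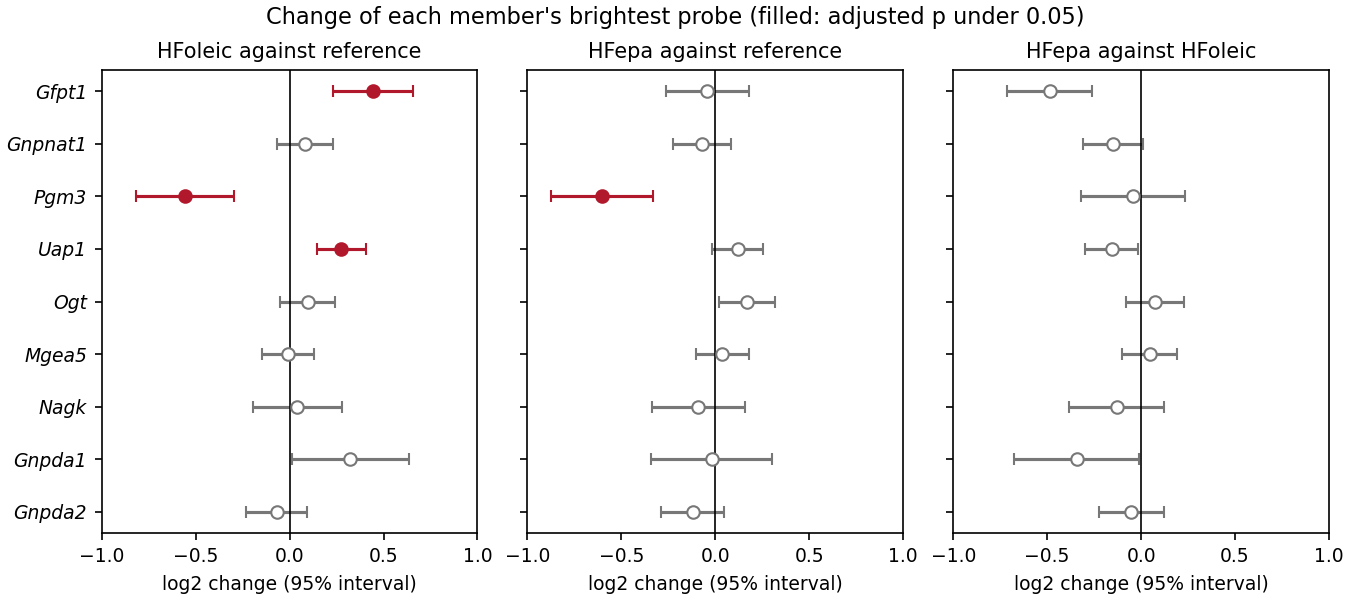
Log2 change of the brightest tested probe of 9 members with its 95% interval from limma, not adjusted for the number of probes, in the 3 comparisons. Filled points had an adjusted p under 0.05: Gfpt1, Uap1 and Pgm3 in HFoleic against reference, Pgm3 in HFepa against reference, and 0 in HFepa against HFoleic.

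Gnpnat1 had a median of 10.89 in reference and 10.96 in HFoleic mice, a difference of 0.08 ± 0.07 (adjusted p = 0.574). Gfpt2, the second amidotransferase, had 2 probes that were well above background on 0 to 2 arrays of any group, so that this gene had no test. Its brighter probe had a median of 5.55 in reference, 5.51 in HFoleic and 5.62 in HFepa mice.

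The enzymes that put O-GlcNAc on and take it off did not pass the test in HFoleic. Ogt, the transferase, ranged from 8.14 to 8.79 with a median of 8.43 in reference mice and from 8.45 to 8.62 with a median of 8.53 in HFoleic mice. All 8 HFoleic mice lay above the reference mean, and 0 lay above every reference mouse. The difference was 0.10 ± 0.07 with a 95% interval of -0.05 to 0.24 (adjusted p = 0.475). The second Ogt probe gave 0.14 ± 0.07 (adjusted p = 0.240) and the remaining one -0.01 ± 0.16 (adjusted p = 0.974). Mgea5 is the array's name for the gene now called Oga, the hydrolase that removes the sugar. Its brightest probe had a median of 11.67 in reference and 11.73 in HFoleic mice, with a difference of -0.01 ± 0.07 and a 95% interval of -0.14 to 0.13 (adjusted p = 0.967). The other 4 Mgea5 probes differed by -0.08 to 0.14, with adjusted p from 0.308 to 0.916. One of these, A_55_P2730466, lies on the plus strand, opposite to the gene's other probes, and may not read the same transcript.

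The genes that salvage or break down amino sugars did not pass the test either. Nagk, the kinase that returns free GlcNAc to the pathway, had a median of 10.18 in reference and 10.26 in HFoleic mice and a difference of 0.04 ± 0.12 (adjusted p = 0.894). Its other probes gave 0.07 (A_55_P2494138, adjusted p = 0.776) and 0.11 (A_66_P136601, adjusted p = 0.615). Gnpda1 and Gnpda2 are deaminases that turn glucosamine 6-phosphate back into fructose 6-phosphate. Gnpda1 ranged from 10.94 to 11.96 with a median of 11.45 in reference mice and from 11.38 to 11.98 with a median of 11.69 in HFoleic mice. The difference of 0.32 ± 0.15 had an unadjusted p of 0.0427 and an adjusted p of 0.217, with 7 of 8 HFoleic mice above the reference mean. Its second probe, A_66_P121493, gave 0.18 ± 0.13 (adjusted p = 0.462). Gnpda2 differed by -0.07 ± 0.08 (adjusted p = 0.682), and by -0.18 ± 0.12 by its second tested probe, A_52_P434820 (adjusted p = 0.411).

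HFepa against reference set the EPA lineage on the obesogenic diet against the oleic lineage on the low-fat diet. Diet and lineage thus differed at once. Pgm3 was the 1 member called of the 9 tested (11.1%), where 0.393% of all tested probes were called. It ranged from 9.47 to 10.32 with a median of 9.74 in HFepa mice. All 7 HFepa mice lay below the reference mean, and 5 of 7 below every reference mouse. The fall was -0.60 ± 0.13, or 0.659 times the reference level (adjusted p = 0.0385), and the second probe gave -0.57 ± 0.16 (adjusted p = 0.101). Within the slides it was -0.58, -0.75 and -0.43.

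This call stood close to the threshold. Without reference replicate 5 the change was -0.57 ± 0.13 with an adjusted p of 0.0612. The call was lost when any of 11 of the 24 arrays was left out, 6 of HFepa and 5 of reference, with adjusted p from 0.0606 to 0.0912. The direction was kept in each of these fits.

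Gfpt1 and Uap1 were not called in HFepa against reference. The Gfpt1 difference was -0.04 ± 0.11 with a 95% interval of -0.26 to 0.18 (adjusted p = 0.914), and 3 of 7 HFepa mice lay above the reference mean. Within the slides it was -0.14, 0.15 and -0.18. The Uap1 difference was 0.12 ± 0.07 with an interval of -0.02 to 0.25 (adjusted p = 0.458), and all 7 HFepa mice lay above the reference mean. HFepa values of Uap1 lay close together, with an SD of 0.04 against 0.14 in reference and 0.15 in HFoleic mice. By brightest probes, Ogt had the next smallest adjusted p after Pgm3. It ranged from 8.34 to 8.77 with a median of 8.67 in HFepa mice, with 6 of 7 above the reference mean, and differed by 0.17 ± 0.07 (adjusted p = 0.308). The other Ogt probes gave 0.14 (adjusted p = 0.395) and 0.00 (adjusted p = 0.999). By brightest probes, Gnpnat1, Mgea5, Nagk, Gnpda1 and Gnpda2 differed by -0.12 to 0.04, with adjusted p from 0.563 to 0.980. The second Gnpda2 probe gave 0.13 (adjusted p = 0.692), opposite in sign to the brightest. The other Mgea5 probes gave -0.08 to 0.19, with adjusted p from 0.327 to 0.911.

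The comparison of HFepa with HFoleic set the lineages against each other on 1 diet. Limma called 0 members and 0% of all tested probes at an adjusted p under 0.05, while 2910 of 30003 probes had an unadjusted p under 0.05. Gfpt1 was 0.49 ± 0.11 lower in HFepa (change -0.49, 95% interval -0.71 to -0.26, unadjusted p = 0.000170, adjusted p = 0.120). All 7 HFepa mice lay below the HFoleic mean, and 4 of 7 below every HFoleic mouse. The second bright probe gave -0.45 ± 0.10 (adjusted p = 0.120). The difference was -0.60, -0.22 and -0.62 within the slides. Uap1 differed by -0.16 ± 0.07 (adjusted p = 0.448; -0.31, 0.03 and -0.14 within the slides) and Gnpda1 by -0.34 ± 0.16 (adjusted p = 0.499). Gnpda2 differed by -0.05 by its brightest probe (adjusted p = 0.896) and by 0.31 by the second (adjusted p = 0.385), so its probes disagreed in sign. Pgm3 differed by -0.04 ± 0.14 with an interval of -0.32 to 0.23 (adjusted p = 0.952), so that its level had a similar mean in both groups on the obesogenic diet, 9.87 and 9.83. Thus a rise of Gfpt1 was called in HFoleic and not in HFepa, but the difference between these groups did not pass the adjusted threshold. The unadjusted limma p was 0.000238 for the called rise and 0.000170 for the difference that was not called. The adjustment was made within each comparison, so the 2 calls do not rank the strength of these changes. These comparisons share groups and are not independent of each other.

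The genes around the pathway were read from 6 lists, each gene from its brightest tested probe. Of 21 genes that supply its substrates, 6 were called in HFoleic against reference (28.6%, against 7.23% of all probes), 4 higher and 2 lower. In HFepa against reference 0 were called, where 0.393% of all probes were called. Nme2, a nucleoside diphosphate kinase that makes UTP, rose by 0.19 (adjusted p = 0.00859), Ugp2, which makes UDP-glucose, by 0.37 (adjusted p = 0.0226) and Cad, the first enzyme of pyrimidine synthesis, by 0.36 (adjusted p = 0.0248). Gls2, the liver glutaminase, fell by 0.48 (change -0.48, adjusted p = 0.0206). Slc1a5, a glutamine transporter, was lower at -0.77 (adjusted p = 0.0451). The median over the list was 0.07, against 0.00 for all probes. Without reference replicate 5, 5 of the 6 remained called.

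Of 15 other enzymes of amino sugars and sialic acid, 2 were called in HFoleic (13.3%, against 7.23% of all probes). In HFepa against reference 0 were called, against 0.393% of all probes. Nans, which makes sialic acid phosphate, rose by 0.59 (adjusted p = 0.00408), and its second probe gave 0.50 (adjusted p = 0.0667). Nanp, the phosphatase of the next step, was lower at -0.22 (adjusted p = 0.0439), and its second probe gave -0.12 (adjusted p = 0.560). In HFepa the brightest Nanp probe differed from reference by -0.28 (adjusted p = 0.0663), which was not called. Of 21 tested users and carriers of UDP-GlcNAc, 2 were called in HFoleic (9.52%), which is near the 7.23% of all probes. These were Piga, of the first step of membrane anchors, at 0.52 (adjusted p = 0.00617; the other 2 probes gave 0.30 and -0.03) and Slc35d2, a nucleotide sugar carrier, at 0.32 (adjusted p = 0.0294). Without reference replicate 5, 3 genes of this list were called, 1 of them in common, so that only 1 of the 2 calls above was kept. Dpagt1, of the first step of N-glycans, gave 0.19 by its brightest probe (adjusted p = 0.0554) and was not counted, though 1 of its dimmer probes was called. A further 6 genes of the list, Mgat3, Ext2, Has1, Has2, Has3 and Gcnt1, were too dim to be tested.

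Of 16 partners of Ogt and liver proteins known to carry O-GlcNAc, 2 were called in HFoleic (12.5%, against 7.23% of all probes), a share not far from that of all probes. Mlxipl, which encodes the glucose-responsive factor ChREBP, rose by 0.55 ± 0.10 (adjusted p = 0.00163). In HFepa it differed from reference by 0.44 (adjusted p = 0.0458), the 1 call of this list there (6.25%, against 0.393% of all probes), which was lost without reference replicate 5. The other 2 Mlxipl probes gave -0.05 and 0.31 in HFoleic and were not called. Ppargc1a, a coactivator of the fasting response, fell in HFoleic (change -0.54, adjusted p = 0.0296, with -0.53 by its second probe). In HFepa it differed from reference by -0.62 (adjusted p = 0.0700), which was not called, and from HFoleic by -0.08 (adjusted p = 0.924). The other 14 did not pass the test.

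**Figure D3:**
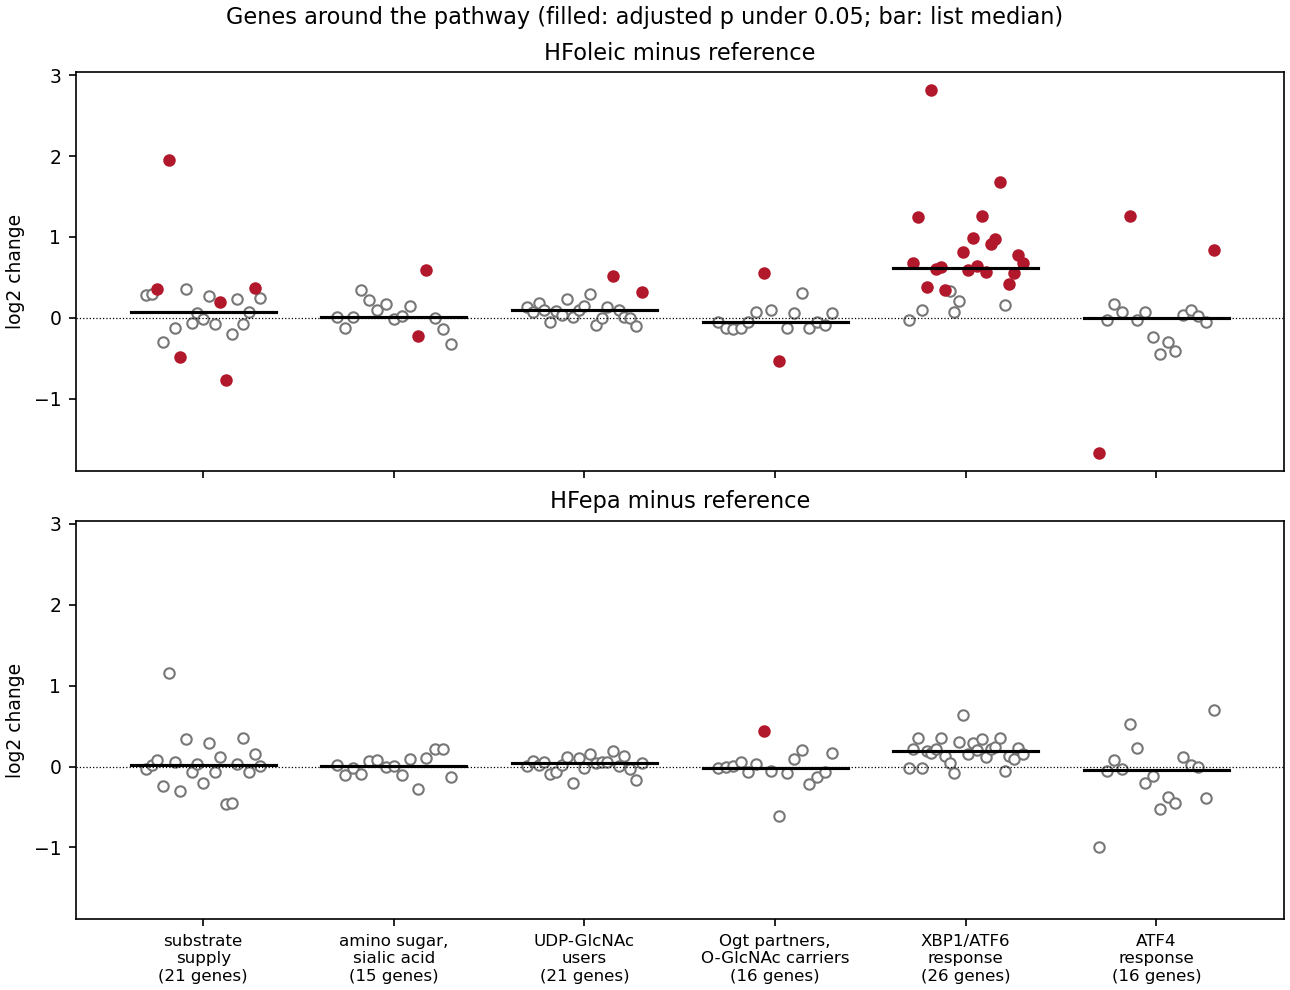
Log2 change of each tested gene of 6 lists (x axis) in HFoleic (upper panel) and HFepa (lower panel) against the same reference mice. Filled points had an adjusted p under 0.05, and the bar is the median of the list. In the XBP1 and ATF6 list 20 of 26 genes were called higher in HFoleic and 0 in HFepa by their brightest probe. Of all probes, 7.23% were called in HFoleic and 0.393% in HFepa. In HFepa 22 of the 26 changes were above 0, and a dimmer probe of Hyou1, not plotted, was called higher.

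The list with most calls was the XBP1 and ATF6 response, which holds chaperones and degradation factors of the endoplasmic reticulum. In HFoleic 20 of its 26 genes were called, all of them higher (76.9%, against 7.23% of all probes), with a list median of 0.62. Xbp1 rose by 0.68 ± 0.11 (adjusted p = 0.000769), and its other 2 probes also rose, by 0.60 and 0.64. Pdia6 and Pdia4, disulfide isomerases, rose by 0.97 (adjusted p = 0.000253) and 0.91 (adjusted p = 0.000930). Derl2 and Derl3, which help carry misfolded proteins out of the endoplasmic reticulum, rose by 0.39 (adjusted p = 0.000602) and 2.81 (adjusted p = 0.000838). In HFepa against reference 0 of 26 were called, with a list median of 0.20 and a smallest adjusted p of 0.0855, where 0.393% of all probes were called. There 22 of 26 changes were above 0. These counts read each gene from its brightest probe. A dimmer probe of Hyou1, a chaperone of the list (A_52_P375076, mean level 6.41), was called higher in HFepa against reference, at 0.999 (adjusted p = 0.0467), and gave 0.07 in HFoleic (adjusted p = 0.898). The other 3 probes of Hyou1 gave 0.05 to 0.21 in HFepa and were not called there, and 0.48 to 0.73 in HFoleic, where all 3 were called. In HFepa against HFoleic 0 of 26 were called, the list median was -0.43 and 1 of 26 changes was above 0. Without reference replicate 5, 19 of the 20 remained called in HFoleic. This list was made with earlier results of these mice known, so its count is not independent evidence.

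The ATF4 list holds genes of amino acid stress. Of its 16 tested genes 3 were called in HFoleic (18.8%, against 7.23% of all probes), and 13 did not pass the test. Chac1, which degrades glutathione, rose by 1.25 (adjusted p = 0.00534) and Vldlr, a lipoprotein receptor, by 0.83 (adjusted p = 0.0338). Asns, the asparagine synthetase and a standard ATF4 target, was lower at -1.67 (adjusted p = 0.00882). The list median was 0.00, and 0 genes were called in HFepa against reference, where 0.393% of all probes were called.

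The genes whose signal was most like that of Gfpt1 over the 24 mice were sought among 19046 other gene names, each by its brightest probe, as a description. The mice share groups and processing, and no p is given. The 5 highest Pearson correlations were with Zfp330 (0.895), Tmed3 (0.892), Lman2 (0.887), Syvn1 (0.883) and Xbp1 (0.879). Their Spearman correlations were 0.843 to 0.921. After subtraction of the group means the Pearson correlations were 0.772 to 0.816, and without the 2 mice farthest from the Gfpt1 median they were 0.835 to 0.871. Lman2 and Tmed3 are cargo carriers between the endoplasmic reticulum and the Golgi, and Syvn1 is a ubiquitin ligase of the endoplasmic reticulum. Xbp1 and Syvn1 were also in the XBP1 and ATF6 list.

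**Figure D4:**
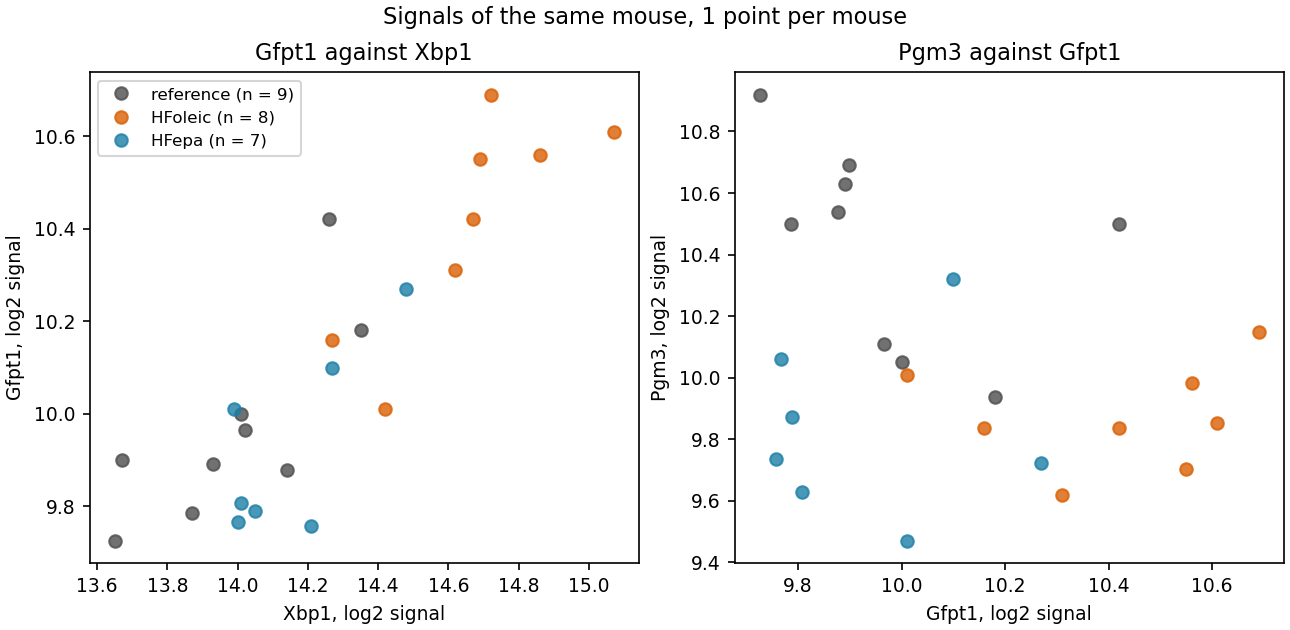
Log2 signals of pairs of genes in the same mouse, 1 point per mouse, coloured by group (9 reference, 8 HFoleic, 7 HFepa). On the left, Gfpt1 was higher in mice with more Xbp1. On the right, all 8 HFoleic mice lay below the reference mean of Pgm3 (10.43) at Gfpt1 levels of 10.01 to 10.69, and all 7 HFepa mice lay below it at Gfpt1 levels of 9.76 to 10.27.

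The pattern of Ogt was less closely matched. Its 5 nearest genes were 1600014C10Rik (0.792), 2610020H08Rik (0.783), 1810034E14Rik (0.780), Cxcl12 (0.765) and Ces1g (0.763), with Spearman correlations of 0.660 to 0.801. None of the 5 was called in a comparison. For Pgm3, taken after its values had been seen, the nearest gene was Trub2, a pseudouridine synthase, at 0.923 (Spearman 0.924, and 0.844 after subtraction of group means). Trub2 was also lower in HFoleic, at -0.46 (adjusted p = 0.00579), and differed by -0.41 in HFepa (adjusted p = 0.0630).

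The promoters of the called members were read from RefSeq (build GRCm38.p6), as the 250 bases before the start of the gene on its own strand. These positions are of another build than those of the probes and cannot be set against them. A promoter was in the table for 8 of the 10 members, in 9 windows. They are shown because XBP1 and ATF6 are known to bind CCACG and ACGTGG motifs, which stand in capitals where found on either strand.
Gfpt1, chr6:87042596-87042845, plus strand: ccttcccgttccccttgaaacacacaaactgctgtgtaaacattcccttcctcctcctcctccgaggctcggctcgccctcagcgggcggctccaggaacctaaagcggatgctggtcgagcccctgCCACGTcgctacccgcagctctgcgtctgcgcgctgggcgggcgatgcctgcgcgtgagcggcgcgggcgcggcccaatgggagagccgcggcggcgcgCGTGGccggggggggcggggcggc
Uap1, chr1:170174965-170175214, minus strand: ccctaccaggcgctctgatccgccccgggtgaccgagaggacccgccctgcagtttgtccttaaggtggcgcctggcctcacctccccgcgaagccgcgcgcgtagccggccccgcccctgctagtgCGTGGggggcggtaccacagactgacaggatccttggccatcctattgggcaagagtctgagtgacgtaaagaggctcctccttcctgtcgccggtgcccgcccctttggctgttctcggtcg
Pgm3, chr9:86571843-86572092, minus strand: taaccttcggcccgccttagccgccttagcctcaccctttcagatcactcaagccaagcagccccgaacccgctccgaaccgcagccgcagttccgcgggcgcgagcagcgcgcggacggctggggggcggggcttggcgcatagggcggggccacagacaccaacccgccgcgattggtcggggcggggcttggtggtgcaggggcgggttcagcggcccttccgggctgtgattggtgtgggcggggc
In Gfpt1 the capitals mark CCACG on the gene's strand, starting 123 bases before the start, overlapped there by ACGTGG on the other strand, and CCACG on the other strand 24 bases before the start. In Uap1 they mark CCACG on the other strand, 123 bases before the start. Pgm3 held neither motif in this window.

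CCACG was found on either strand in 28.3% of the 32851 promoters of the table and ACGTGG in 6.91%, so a match is a description and not a site. The ER stress element (CCAAT, 9 further bases, then CCACG), held by 0.113% of promoters, was found in 0 of the 9 member windows. The CREB motif TGACGTCA (1.55% of promoters), the ATF4 motif TGATGNAAT (0.816%) and the E-box CACGTG (6.02%) were found in 0 of the 9 windows as well. The windows of Ogt, Oga, Nagk, Gnpda2 and Gfpt2 held none of the motifs searched.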

How the data were processed

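Liver RNA of 24 mice was measured on Agilent mouse expression arrays in 1 colour, and groups came from the sample labels. The authors deposited 1 file per array from Agilent Feature Extraction 10.10.1.1, with median, mean and processed signals as intensity values per spot and marks for outlier and well above background, and a table of log2 values that they had filtered and quantile normalized. The filter behind the deposited log2 table, which held 24 of the 27 member probes, is not given in the sources used here.

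Outlier spots (134 to 627 per array) were dropped and the log2 median signal was averaged per probe. A probe was kept if 75% or more of any group's arrays had it well above background (30003 probes), followed by quantile normalization. Limma 3.58.1 (R 4.3.3) fitted group means to all 24 arrays, two-sided, with Benjamini-Hochberg adjustment over all probes tested in each of the 3 comparisons and calls at an adjusted p under 0.05. The fit was also run on simulated data, drawn as independent normal values per probe without slide effects. That run therefore does not test those features of the real arrays, and no result rests on it. Tables, motif counts and permutation tests used Python 3.11.15, pandas 2.3.3, numpy 2.4.6 and scipy 1.17.1, and figures matplotlib 3.10.9. Alternatives were the processed signal scaled to its 75th percentile, normexp with an offset of 50, the deposited table, no filter, slide, slide row or replicate number as a block, the methods' t-test, each array left out, and other probes of a gene. The number of arrays limits the precision.

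All members are named, and their tested probes other than the brightest are given singly or as ranges for HFoleic against reference. In the other comparisons they are given in part. From each further list the genes called in at least 1 comparison are named, or the 5 with the smallest adjusted p where more were called, and for Gfpt1 and Ogt the 5 genes most like them. Outside this rule, Slc1a5, Hyou1, Dpagt1, Trub2, Cps1, Lrat, Sox9 and the genes too dim to be tested are named after their values were seen. The values of 1 gene that the rule names are not reported here. Each gene is read from its brightest tested probe, while the shares of all probes set beside the counts are over every tested probe. Members and lists were chosen with earlier results of these data known. Gene names and mm9 coordinates are those of the scanner files.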

Additional observations from a re-analysis of the deposited data

Results flagged for a closer look

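Dixon's test was applied to the 9 tested members in each group, 27 groups of values in all, of which chance would flag about 1 in 20. It marked 2. The lowest Gnpnat1 value in HFepa was that of replicate 1, at 10.51, with the next mouse at 10.79. The highest Nagk value in reference mice was 11.02, in replicate 5, with the next mouse at 10.43. Reference replicate 5 is the array that stood apart on the first principal component, and without it the Nagk difference in HFoleic against reference was 0.14 ± 0.09 (limma, adjusted p = 0.394).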

How the results depend on the processing

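The 9 tested members were refitted under 301 alternatives in each comparison, counting each gene and setting once. In HFoleic against reference 300 of 301 stayed on their side of the threshold with 0 called changes reversed. The 1 exception was Gfpt1 read from its dim probe (0.18, adjusted p = 0.280). The call was kept in 33 of 34 settings for Gfpt1, 33 of 33 for Pgm3 and 32 of 32 for Uap1. The rest were of members not called, which count as unchanged while they stay uncalled. Some settings left out an HFepa array, which is in neither group of this comparison. Pgm3 in HFepa against reference lost its call in 15 settings: with the processed signal (adjusted p = 0.0599), with no filter (0.0846), with the methods' t-test (0.191), by its second probe (0.101) and without any of 11 arrays. The count of members called there was 0 with the processed signal, with no filter and with the methods' t-test, and 0 to 1 with an array left out. All probes called in that comparison numbered 118, against 0 with no filter, 0 with the methods' t-test and 0 to 497 with an array left out (497 without reference replicate 8, 256 without HFepa replicate 3, 62 without HFepa replicate 4, 48 without reference replicate 4, 7 without reference replicate 1, 3 without HFepa replicate 1 or 7, and 0 without reference replicate 2 or HFepa replicate 2 or 6). In HFepa against HFoleic the count of probes was 0 to 15 with an array left out (15 without HFepa replicate 5, 8 without HFoleic replicate 6), and 0 members were called under each alternative run. The Mlxipl call in HFepa was lost without reference replicate 5, where the count of its list was 0. The cause of these changes was not tested.

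Same-numbered mice of different groups did not deviate together (median correlation 0.00345 over 22 pairs, 3 of them over 0.1), so replicate numbers name mice only. With the replicate block the counts were 1747, 104 and 0 probes and 3, 1 and 0 members in HFoleic against reference, HFepa against reference and HFepa against HFoleic. The fits without reference replicate 5 of the further lists were added after seeing the data. The 5 untested probes (2 of Gfpt1, 2 of Gfpt2 and 1 of Gnpda2) were near the background, which limits what the array can show for them.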
